A study of Mus musculus with 6 samples.

Results

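The Slc25 family of mitochondrial solute carriers was examined in polyadenylated RNA of mouse soleus, a calf muscle. Its members were the genes whose deposited symbol is Slc25a followed by a number, 44 of the 21572 symbols in the tables, a rule that uses no measured value. The 6 libraries came from adult C57BL/6 mice and formed 3 groups of 2: denervated soleus of mice with the genotype Dach2-/-/Hdac9-/-, denervated soleus of wild-type (WT) mice and innervated soleus of WT mice. Denervation, the loss of the muscle's nerve supply, had lasted 3 days in both denervated groups. Dach2 is a transcriptional cofactor and Hdac9 a class II histone deacetylase, both known as parts of the transcriptional response of muscle to its nerve. Innervated muscle of the knockout was not analysed here, so the genotype was compared in denervated muscle alone. The labels name no tissue-specific driver for the deletions and do not say whether the 2 libraries of a group came from separate animals, so p-values reflect only how these libraries vary, which may be technical variation. In whole muscle, fewer cells of a type and less RNA per cell cannot be told apart.

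Slc25 proteins sit mostly in the inner mitochondrial membrane and exchange metabolites between the cytosol and the matrix. The abundant carriers of muscle bring ADP and phosphate in and ATP out for oxidative phosphorylation. Others carry the substrates of the malate-aspartate shuttle, acylcarnitines, amino acids, cofactors and iron. Members were read by these roles: carriers of ATP, ADP and phosphate, of nucleotides and cofactors, of carboxylates, of amino acids and glutathione, of acylcarnitine and of iron, the uncoupling-protein-like members, 1 outer membrane member, and members whose substrate is not settled.

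The closest relatives in the family by coding sequence were Slc25a4 (Ant1, the ADP/ATP carrier of heart and skeletal muscle) at chr8:47292697-47296363 and Slc25a5 (Ant2, the form of many other and of dividing cells) at chrX:34335646-34338801, both on mm9. Their coding sequences in the GENCODE mouse transcripts were 897 bases each and 77.6% identical, with a longest shared run of 20 bases. Their first 90 coding bases are shown because these paralogues changed in opposite directions after denervation. Capitals mark the 24 positions at which they differ, 5′ to 3′ from the start codon.
Slc25a4: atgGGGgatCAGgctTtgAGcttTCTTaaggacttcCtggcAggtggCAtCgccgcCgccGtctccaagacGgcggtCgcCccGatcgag
Slc25a5: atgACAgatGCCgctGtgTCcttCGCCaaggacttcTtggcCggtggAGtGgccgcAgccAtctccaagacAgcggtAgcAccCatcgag
How the authors assigned fragments shared by such copies is not given in the sources used here, so the levels of close relatives carry that uncertainty.

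The libraries held 25529434 to 46305449 assigned fragments. Log2 levels for the next values were fragments scaled to the library total adjusted by the trimmed mean of M-values. Their correlations between the 2 libraries of a group were 0.98 in Dach2-/-/Hdac9-/- muscle, 0.97 in denervated WT muscle and 0.99 in innervated WT muscle. Denervated WT replicate 2 stood apart on the second principal component, which held 13% of the variance, with a score of 43.28 against -27.94 to 8.82 in the other libraries. Levels are given in FPKM, the authors' unit of fragments scaled to transcript length. Between libraries the FPKM followed the authors' scaling factor of each library rather than its total of fragments. Dach2 had 0.961 and 0.681 FPKM in the libraries labelled Dach2-/-/Hdac9-/-. It had 0.519 and 0.536 FPKM in denervated WT muscle and 3.85 and 4.29 FPKM in innervated WT muscle. Hdac9 had 0.534 and 0.181 FPKM in the labelled knockout libraries, against 1.83 and 0.285 FPKM in denervated WT muscle and 4.10 and 3.14 FPKM in innervated WT muscle. Dach2 was thus not lower in the labelled knockout than in denervated WT muscle, the Hdac9 values of these groups overlapped, and which part of each gene was deleted is not given in the sources used here. The group is therefore called DKO-labelled below.

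Summed over the 44 members, Slc25 expression was 2061 and 2092 FPKM in DKO-labelled muscle, 2092 and 2468 FPKM in denervated WT muscle and 6329 and 7357 FPKM in innervated WT muscle. Both denervated groups lay far below innervated muscle and close to each other. Slc25a4 alone made up 49.8% and 54.3% of that sum in DKO-labelled muscle, 56.6% and 56.8% in denervated WT muscle, against 73.1% and 74.6% in innervated WT muscle. The share of Slc25a3, the phosphate carrier, was 22.2% and 19.3% in DKO-labelled muscle, 15.9% and 14.5% in denervated WT muscle, against 12% and 11.4% in innervated WT muscle. Slc25a5 made up 5.76% and 5.71% in DKO-labelled muscle, 5.65% and 8.35% in denervated WT muscle, against 1.01% and 0.841% in innervated WT muscle. The ratio of Slc25a5 to Slc25a4 was thus 0.116 and 0.105 in DKO-labelled muscle, 0.0999 and 0.147 in denervated WT muscle, against 0.0138 and 0.0113 in innervated WT muscle. The 4 members that dominated innervated muscle (Slc25a4, Slc25a3, Slc25a11 and Slc25a12) held 79.2% and 80.6% of the sum in DKO-labelled muscle, 80.9% and 78.0% in denervated WT muscle, against 92.3% and 92.9% in innervated WT muscle. These shares are within a library and therefore free of its scaling, but a share falls when another member's rises.

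**Figure D1:**
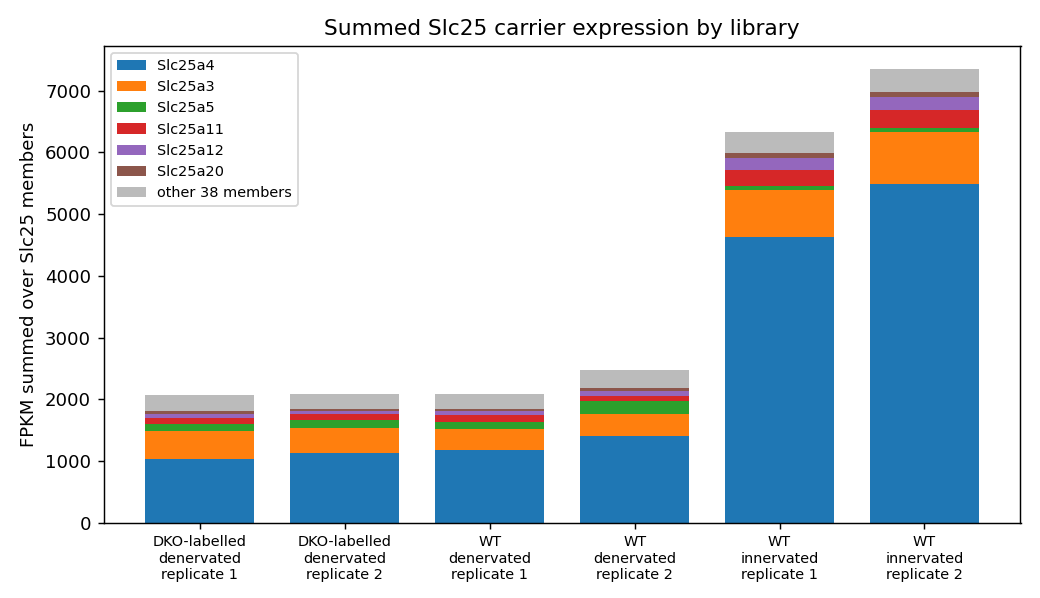
FPKM summed over the 44 Slc25 members in each of the 6 libraries (stacked bars, linear axis from 0; 6 members shown singly and the other 38 together). The 4 denervated libraries reach 2061 to 2468 FPKM and the innervated WT libraries 6329 and 7357, and most of the gap is Slc25a4.

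Denervation of WT soleus lowered many carriers of energy metabolism and raised a few members, among them carriers of ATP, ADP or phosphate. Of the 44 members, 37 reached a mean of 0.5 FPKM over the 6 libraries and were tested. Of these 37, 13 were lower and 4 higher in denervated than in innervated WT muscle (edgeR quasi-likelihood test, Benjamini-Hochberg adjusted p under 0.05 over all 12247 genes tested), and 20 were not called. Among all genes tested 28.7% were called, 14.3% lower and 14.4% higher, against 45.9% of the members, 35.1% lower and 10.8% higher. The median log2 fold change was -0.45 over the members and 0.00 over all genes tested. The FPKM of both denervated libraries lay below both innervated ones in 20 members and above in 7. Together these were 73.0% of the members, near the 71.1% of all genes tested. The split by direction was less even in the members than in all genes (38.5% below, 32.7% above).

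Most of these calls needed both innervated libraries. Without innervated WT replicate 1, 5 of the 17 calls held (Slc25a4, Slc25a11, Slc25a12, Slc25a22 and Slc25a25), and without innervated WT replicate 2 only that of Slc25a22 held. The other 12 and 16 kept their direction with adjusted p-values of 0.0544 to 0.227 and of 0.0501 to 0.195. Over all genes, 177 were called higher and 291 lower without replicate 1, and 83 higher and 119 lower without replicate 2, against 1759 and 1753 with both. Without denervated WT replicate 2, the library that stood apart, 3 members were called higher and 15 lower. With library totals as the only scaling, 7 members were called higher and 11 lower. That scaling moved the median of all genes by 0.27 on the log2 scale, and 74.4% of its calls were higher, against 50.1% with the scaling used here (trimmed mean of M-values).

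**Figure D2:**
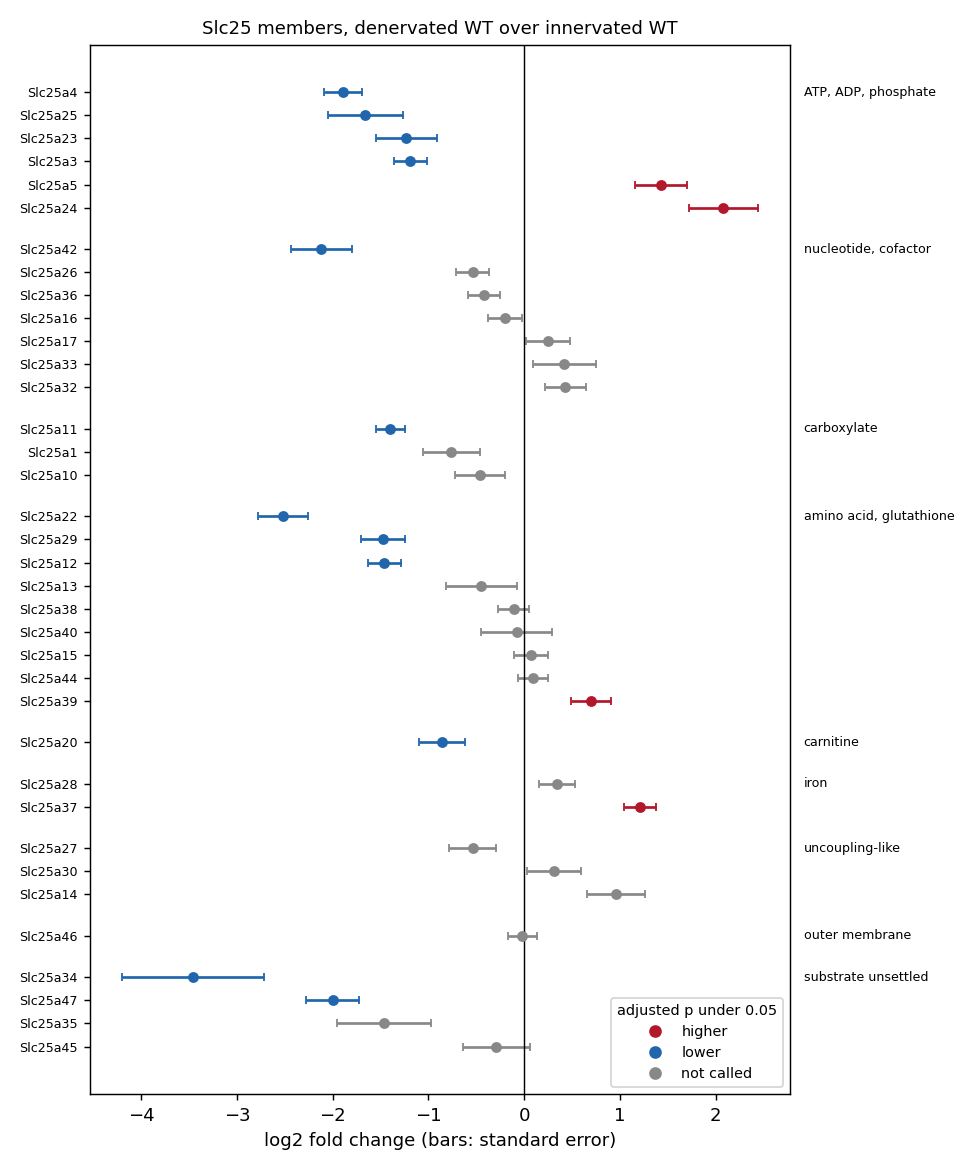
Log2 fold change (denervated WT over innervated WT) of 36 of the 37 tested Slc25 members, ordered by role, with bars of 1 standard error. The lower members run from -3.46 (Slc25a34) to -0.86 (Slc25a20), and the 4 higher ones from 0.70 (Slc25a39) to 2.08 (Slc25a24).

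All 6 tested carriers of ATP, ADP and phosphate were called in denervated against innervated WT, 4 lower and 2 higher, beside 28.7% of all genes. Slc25a4 had 1027 and 1136 FPKM in DKO-labelled muscle, 1184 and 1403 FPKM in denervated WT muscle and 4627 and 5489 FPKM in innervated WT muscle. It was 3.71-fold lower in denervated than in innervated WT muscle (log2 fold change -1.89 ± 0.20 SE, adjusted p = 0.00348). Slc25a3 (chr10:90579322-90586708), which imports phosphate for ATP synthesis, had 458 and 404 FPKM in DKO-labelled muscle, 333 and 357 FPKM in denervated WT muscle and 762 and 841 FPKM in innervated WT muscle, and fell by 1.19 ± 0.17 on the log2 scale in denervated WT (adjusted p = 0.00612). Both muscle-abundant carriers were thus low in every denervated library. Slc25a5 went the other way, with 119 and 119 FPKM in DKO-labelled muscle, 118 and 206 FPKM in denervated WT muscle and 63.7 and 61.9 FPKM in innervated WT muscle. It was 2.69-fold higher in denervated WT (log2 1.43 ± 0.27, adjusted p = 0.0126), and denervated WT replicate 2 held the high value (log2 0.96 without it, adjusted p = 0.00845). Without innervated WT replicate 2, Slc25a4 had an adjusted p of 0.0501 (log2 -1.77), and Slc25a3 and Slc25a5 missed the threshold without either innervated library (adjusted p 0.0544 and 0.0953 without replicate 1, 0.0716 and 0.104 without replicate 2).

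The calcium-regulated ATP-Mg/phosphate carriers, which set the adenine nucleotide content of the matrix, divided in the same manner. Slc25a24 (chr3:108926066-108971327) had 10.6 and 6.21 FPKM in DKO-labelled muscle, 12.8 and 7.68 FPKM in denervated WT muscle and 2.79 and 2.04 FPKM in innervated WT muscle. It was 4.23-fold higher in denervated than in innervated WT (log2 2.08 ± 0.36, adjusted p = 0.0105), the largest rise among the tested members. Slc25a25 had 2.75 and 2.63 FPKM in DKO-labelled muscle, 3.08 and 5.09 FPKM in denervated WT muscle and 9.01 and 18.4 FPKM in innervated WT muscle (log2 -1.66 ± 0.39, adjusted p = 0.0240). Slc25a23 had 6.43 and 5.92 FPKM in DKO-labelled muscle, 8.29 and 4.31 FPKM in denervated WT muscle and 13.2 and 18.6 FPKM in innervated WT muscle (log2 -1.23 ± 0.32, adjusted p = 0.0339). In innervated muscle Slc25a23 and Slc25a25 were therefore above Slc25a24 in FPKM in both libraries, and in the DKO-labelled and denervated WT libraries Slc25a25 was below it. The coding sequences of Slc25a23 and Slc25a24 were 62.6% identical, and Slc25a25 overlaps Naif1 on mm9, so its fragments may be shared. Without denervated WT replicate 1 Slc25a23 changed by -1.78 (adjusted p = 0.00363), and without replicate 2 by -0.84 (adjusted p = 0.0475). Its call was lost with library totals alone and in the fit of the 2 groups (adjusted p = 0.0613 in each). Without innervated WT replicate 1 the adjusted p was 0.0670 for Slc25a24 and 0.0970 for Slc25a23, without replicate 2 it was 0.0958, 0.191 and, for Slc25a25, 0.139 (log2 -1.06), and Slc25a23 also missed the threshold without either DKO-labelled library (0.0607 and 0.0615). Slc25a31 (Ant4, the ADP/ATP carrier of testis) and Slc25a41 were below the FPKM minimum, with at most 18 and 8 fragments in a library.

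**Figure D3:**
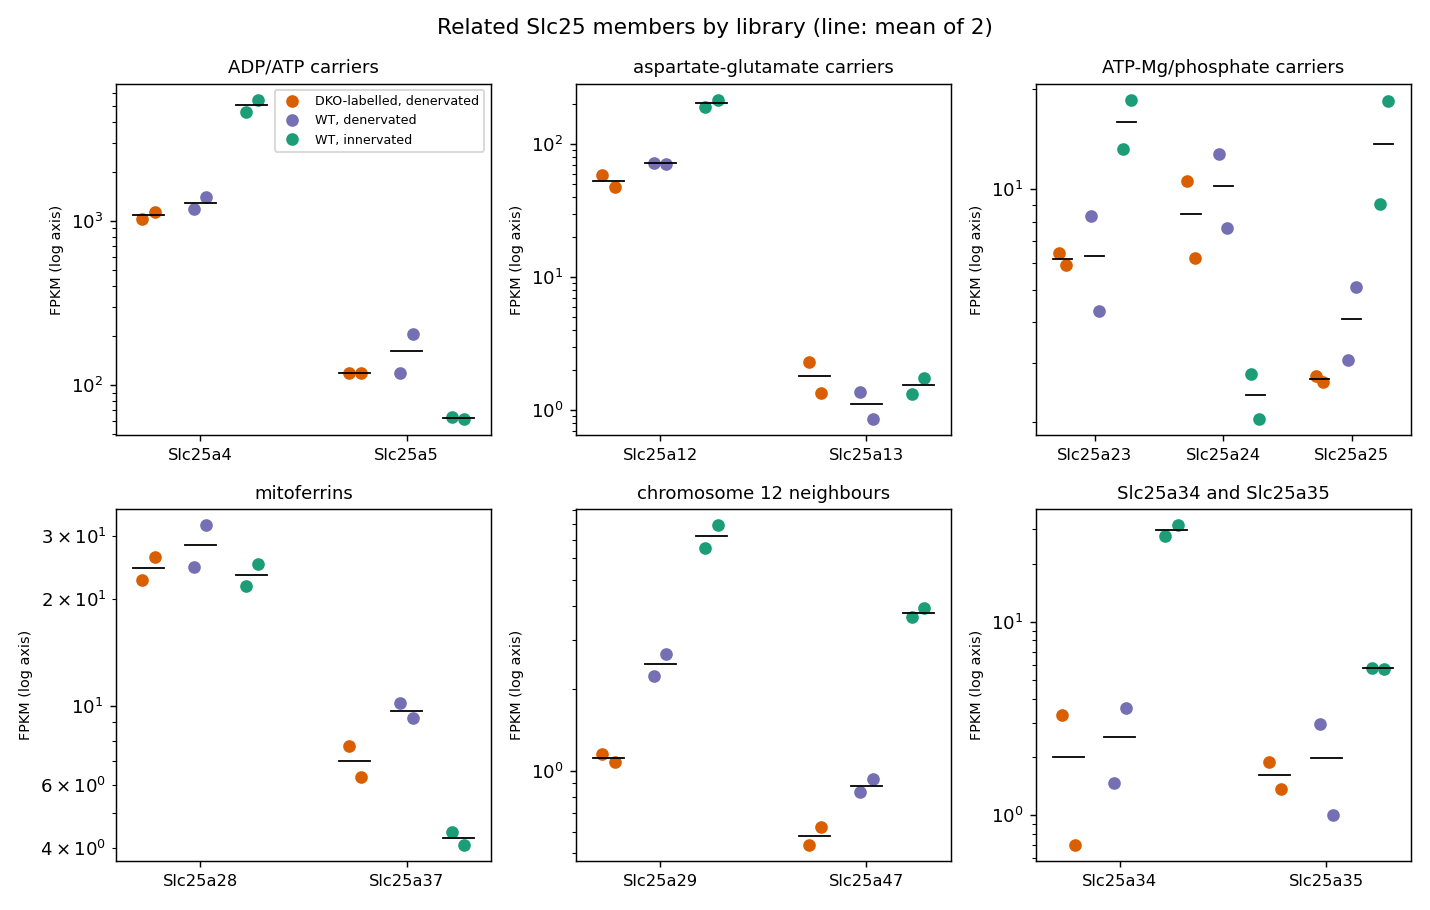
FPKM by library on log axes for 6 sets of related or neighbouring Slc25 members, with DKO-labelled muscle left of denervated WT and innervated WT muscle (points are libraries, lines the mean of 2). Slc25a4 and Slc25a5 lie in opposite order across denervated and innervated muscle, as do Slc25a24 and its relatives Slc25a23 and Slc25a25, whereas Slc25a12 is highest in innervated WT and Slc25a13 stays between 0.854 and 2.30 FPKM.

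Among carriers of nucleotides and cofactors, 2 of 8 tested members (25%) fell and none rose in denervated WT, a share of calls near the 28.7% of all genes. Slc25a42, a coenzyme A and adenine nucleotide carrier, had 7.98 and 4.83 FPKM in DKO-labelled muscle, 7.78 and 4.68 FPKM in denervated WT muscle and 27.3 and 30.2 FPKM in innervated WT muscle, a 4.35-fold fall in denervated WT (log2 -2.12 ± 0.32, adjusted p = 0.00737). All 4 denervated libraries were below both innervated ones. Its adjusted p was 0.0551 without innervated WT replicate 1 and 0.0695 without replicate 2. Slc25a26, which carries S-adenosylmethionine, had 8.21 and 8.46 FPKM in DKO-labelled muscle, 7.99 and 9.28 FPKM in denervated WT muscle and 13.2 and 13.0 FPKM in innervated WT muscle, with an adjusted p of 0.0540 in denervated WT (log2 -0.54 ± 0.17); it overlaps Lrig1 on mm9. Slc25a36, a pyrimidine nucleotide carrier, had 7.59 and 6.95 FPKM in DKO-labelled muscle, 8.15 and 9.85 FPKM in denervated WT muscle and 12.3 and 11.5 FPKM in innervated WT muscle (log2 -0.42 ± 0.17, adjusted p = 0.0999). Its relative Slc25a33 had 20.4 and 26.8 FPKM in DKO-labelled muscle, 18.1 and 27.1 FPKM in denervated WT muscle and 12.5 and 22.3 FPKM in innervated WT muscle (log2 0.42 ± 0.33, adjusted p = 0.359). Without denervated WT replicate 2, Slc25a26 and Slc25a36 were called, with adjusted p-values of 0.0397 and 0.0483. Slc25a26 was also called by DESeq2 (adjusted p = 0.0335), by both limma fits (adjusted p 0.0318 and 0.0314) and with a minimum of 2 FPKM (adjusted p = 0.0320), and Slc25a36 in none of these. The remaining members, Slc25a16, Slc25a17 (a peroxisomal carrier of cofactors) and Slc25a32 (a folate and flavin carrier), were not called, with log2 fold changes of -0.20, 0.25 and 0.43.

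The 2 carriers that serve the malate-aspartate shuttle in muscle, Slc25a11 and Slc25a12, both fell. Slc25a11 (chr11:70457698-70460495), the oxoglutarate-malate exchanger, had 90.7 and 98.5 FPKM in DKO-labelled muscle, 104 and 94.6 FPKM in denervated WT muscle and 260 and 290 FPKM in innervated WT muscle, 2.64-fold lower in denervated than in innervated WT (log2 -1.40 ± 0.15, adjusted p = 0.00361). Slc25a12 (chr2:71112351-71205611), an aspartate-glutamate exchanger, had 58.5 and 47.9 FPKM in DKO-labelled muscle, 72.2 and 71.3 FPKM in denervated WT muscle and 191 and 216 FPKM in innervated WT muscle (2.75-fold lower, log2 -1.46 ± 0.17, adjusted p = 0.00407). All 4 denervated libraries were below both innervated ones for either gene, and without innervated WT replicate 2 the adjusted p-values were 0.0550 and 0.0568. Slc25a13, the aspartate-glutamate exchanger known from liver, shares 70.7% of its coding sequence with Slc25a12. It had 2.30 and 1.34 FPKM in DKO-labelled muscle, 1.37 and 0.854 FPKM in denervated WT muscle and 1.33 and 1.75 FPKM in innervated WT muscle, and it was not called (log2 -0.45 ± 0.37, adjusted p = 0.389). The ratio of Slc25a12 to Slc25a13 was 25.4 and 35.9 in DKO-labelled muscle, 52.8 and 83.5 in denervated WT muscle, against 144 and 124 in innervated WT muscle. The citrate carrier Slc25a1 and the dicarboxylate carrier Slc25a10 were not called, with log2 fold changes of -0.76 ± 0.30 (adjusted p = 0.104) and -0.46 ± 0.26 (adjusted p = 0.224), and the oxoadipate carrier Slc25a21 was below the FPKM minimum with at most 3 fragments in a library.

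Besides Slc25a12, 2 of the other amino acid carriers fell and 1 member linked to glutathione rose. With Slc25a12, 3 of 9 tested members of this group (33.3%) fell and 1 (11.1%) rose, beside 14.3% and 14.4% of all genes. Slc25a22 (chr7:148615647-148623773), a glutamate carrier, had 5.48 and 4.81 FPKM in DKO-labelled muscle, 4.49 and 7.38 FPKM in denervated WT muscle and 35.5 and 37.9 FPKM in innervated WT muscle. Its 5.76-fold fall in denervated WT (log2 -2.52 ± 0.26, adjusted p = 0.00320) held in each of the 6 fits that left out 1 library, with a highest adjusted p of 0.0451. Slc25a18, the other glutamate carrier, was below the FPKM minimum, with 9 to 25 fragments per library. Slc25a29, which carries basic amino acids, had 1.15 and 1.08 FPKM in DKO-labelled muscle, 2.23 and 2.67 FPKM in denervated WT muscle and 6.51 and 7.90 FPKM in innervated WT muscle (log2 -1.47 ± 0.23 in denervated against innervated WT, adjusted p = 0.00810). Its 3 groups did not overlap, with DKO-labelled muscle lowest. Between the denervated groups, 29.8% of all genes did not overlap either. Slc25a39, linked to mitochondrial glutathione import, had 51.8 and 49.9 FPKM in DKO-labelled muscle, 39.9 and 59.6 FPKM in denervated WT muscle and 31.8 and 33.8 FPKM in innervated WT muscle, and its rise was at the edge of the threshold (log2 0.70 ± 0.21, adjusted p = 0.0499). That call was lost in 5 of the 9 other settings and without any 1 library other than denervated WT replicate 1 (adjusted p 0.0840 to 0.227, log2 0.37 without denervated WT replicate 2), and Slc25a29 had an adjusted p of 0.0595 without innervated WT replicate 1 and 0.0889 without replicate 2. Its relative Slc25a40 had 3.65 and 2.68 FPKM in DKO-labelled muscle, 3.13 and 1.58 FPKM in denervated WT muscle and 2.77 and 2.13 FPKM in innervated WT muscle (log2 -0.08 ± 0.37, adjusted p = 0.890). Not called either were Slc25a15 (ornithine), Slc25a38 (glycine) and Slc25a44 (branched-chain amino acids), whose log2 fold changes lay between -0.11 and 0.09, and Slc25a2 (ornithine) was below the minimum with 2 to 7 fragments per library.

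Slc25a20, the carnitine-acylcarnitine carrier that admits fatty acids for oxidation, had 52.6 and 38.5 FPKM in DKO-labelled muscle, 33.4 and 49.2 FPKM in denervated WT muscle and 79.2 and 77.4 FPKM in innervated WT muscle. It was 1.82-fold lower in denervated than in innervated WT (log2 -0.86 ± 0.24, adjusted p = 0.0392). It missed the threshold without denervated WT replicate 1 (log2 -0.62, adjusted p = 0.0601), without innervated WT replicate 1 (adjusted p = 0.171) and without innervated WT replicate 2 (adjusted p = 0.162). The same held with library totals alone (log2 -0.60, adjusted p = 0.0846) and in the fit of the 2 groups (adjusted p = 0.0502). The iron carriers known as mitoferrins differed from each other. Slc25a37 (mitoferrin-1, chr14:69859907-69903160), known for iron supply to haem synthesis in red cell precursors, had 7.71 and 6.32 FPKM in DKO-labelled muscle, 10.2 and 9.23 FPKM in denervated WT muscle and 4.43 and 4.08 FPKM in innervated WT muscle, 2.32-fold higher in denervated WT (log2 1.21 ± 0.17, adjusted p = 0.00616). Slc25a28 (mitoferrin-2, the form of other tissues) had 22.6 and 26.2 FPKM in DKO-labelled muscle, 24.5 and 32.1 FPKM in denervated WT muscle and 21.7 and 25 FPKM in innervated WT muscle and was not called (log2 0.34 ± 0.19, adjusted p = 0.219). Slc25a28 was above Slc25a37 in FPKM in every library, with a ratio of Slc25a37 to Slc25a28 of 0.341 and 0.242 in DKO-labelled muscle, 0.414 and 0.288 in denervated WT muscle, against 0.204 and 0.163 in innervated WT muscle. The adjusted p of Slc25a37 was 0.0602 without innervated WT replicate 1 and 0.0770 without replicate 2. Of 8 red cell markers 4 are listed, without the globin genes, and these summed to 1.71 to 2.41 FPKM in DKO-labelled muscle, 2.76 to 9.28 FPKM in denervated WT muscle and 4.49 to 5.17 FPKM in innervated WT muscle. Their part in the change of Slc25a37 was not tested.

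None of the 3 uncoupling-protein-like members was called in the main edgeR fit in denervated against innervated WT, beside 28.7% of all genes. In that fit 1 of them had an unadjusted p under 0.05. Slc25a14 had 1.84 and 1.58 FPKM in DKO-labelled muscle, 1.43 and 1.51 FPKM in denervated WT muscle and 0.685 and 0.828 FPKM in innervated WT muscle (log2 0.96 ± 0.30, adjusted p = 0.0540), and it was called by DESeq2 (adjusted p = 0.0404), by both limma fits (adjusted p 0.0371 and 0.0375) and with library totals alone (adjusted p = 0.0221). Slc25a30 had 4.65 and 3.19 FPKM in DKO-labelled muscle, 2.75 and 2.32 FPKM in denervated WT muscle and 2.09 and 2.18 FPKM in innervated WT muscle (log2 0.31 ± 0.28, adjusted p = 0.425). For both genes the groups did not overlap and DKO-labelled muscle held the highest values. Slc25a27 had a log2 fold change of -0.54 ± 0.25 (adjusted p = 0.150). Slc25a46, an outer membrane member with a role in mitochondrial shape, was at 15.6 to 17.8 FPKM in all libraries (log2 -0.02 ± 0.15, adjusted p = 0.940).

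Of the 4 tested members without a settled substrate, 2 (50%) fell, beside 14.3% of all genes called lower. Slc25a34 (chr4:141174739-141179749) had 3.28 and 0.70 FPKM in DKO-labelled muscle, 1.47 and 3.59 FPKM in denervated WT muscle and 27.8 and 31.5 FPKM in innervated WT muscle. Its fall in denervated WT was the largest among the tested members, 11-fold, but its denervated libraries also spread widely (log2 -3.46 ± 0.74, adjusted p = 0.0190). It was -2.95 without denervated WT replicate 1 and -4.24 without replicate 2. Its relative Slc25a35 had 1.87 and 1.36 FPKM in DKO-labelled muscle, 2.96 and 0.997 FPKM in denervated WT muscle and 5.77 and 5.71 FPKM in innervated WT muscle (log2 -1.46 ± 0.49, adjusted p = 0.0671), and it depended on the denervated libraries, at -2.46 without denervated WT replicate 1 (adjusted p = 0.00372) and -0.89 without replicate 2 (adjusted p = 0.0747). Slc25a35 was also called by DESeq2 (adjusted p = 0.0152), by both limma fits (adjusted p 0.0419 and 0.0363) and with no FPKM minimum (adjusted p = 0.0341); it overlaps Rangrf on mm9. Slc25a47 (chr12:110089338-110095025), a member known from liver, had 0.536 and 0.625 FPKM in DKO-labelled muscle, 0.834 and 0.932 FPKM in denervated WT muscle and 3.64 and 3.93 FPKM in innervated WT muscle (4.01-fold lower in denervated WT, log2 -2.0 ± 0.28, adjusted p = 0.00632). Slc25a47 lies 15.3 kb from Slc25a29 (chr12:110064087-110074086), and these neighbours had the same order of the 3 groups. That order was not particular to them, since Slc25a4 on chromosome 8 and Slc25a12 on chromosome 2 also had it. The adjusted p was 0.0873 for Slc25a34 and 0.0575 for Slc25a47 without innervated WT replicate 1, and 0.0983 and 0.0697 without replicate 2. Slc25a45 was not called (log2 -0.29 ± 0.35, adjusted p = 0.545), and Slc25a43 and Slc25a48 were below the minimum with at most 11 and 4 fragments in a library. Slc25a43 lies 18.4 kb from Slc25a5 on the X chromosome and Slc25a41 lies 2.06 kb from Slc25a23 on chromosome 17, and both of these neighbours had few fragments in every library.

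The 250 bases before the annotated start were searched, on both strands, for 6 motifs tied to mitochondrial or muscle genes in RefSeq promoter windows (GRCm38.p6). Of the 44 members, 34 had a window, 43 windows in all, and 10 had none (among them Slc25a2, Slc25a26, Slc25a27, Slc25a32, Slc25a35, Slc25a37, Slc25a41, Slc25a44 and Slc25a46). The ERR motif TCAAGGTCA was in none of the 43, against 0.387% of all 32851 windows. The NRF-1 motif (GCGCA and GCGC with 1 base between) was in 2 windows (4.65%), against 3.74% of all windows. A loose MEF2-like pattern (CTA and TAG with any 4 bases between) was in 2 as well (4.65%), against 3.20%. It did not require A or T at the 4 bases, so its matches need not be MEF2 sites. The myogenic E-box CAGCTG was also in 2 (4.65%), against 13.0% of all, the GABP motif ACCGGAAG in 1 (2.33%), against 1.72%, and the E-box CACGTG in 8 (18.6%), against 6.02%. The 7 members with CACGTG were Slc25a1, Slc25a13, Slc25a14, Slc25a15, Slc25a31, Slc25a33 and Slc25a36. Of these, Slc25a31 was not tested and the others were not called in the main edgeR fit in denervated against innervated WT. Slc25a14 was called in some alternatives, among them DESeq2, limma and edgeR with library totals alone. Slc25a14 and Slc25a36 were called in DKO-labelled against innervated WT. In denervated against innervated WT the motif was in 0 of the 12 lower and 0 of the 3 higher members with a window. Motif-holding windows of called members are printed 5′ to 3′ on the gene's strand with the match in capitals. The NRF-1 match of Slc25a3 (chr10:91123968-91124217, minus strand) was 214 bases before the start and on the opposite strand. The MEF2-like match of Slc25a22 (chr7:141435376-141435625, minus strand, in 1 of its 3 windows) was 224 bases before it, with TGGG between CTA and TAG. The CAGCTG matches of Slc25a24 (chr3:109122899-109123148, plus strand) and Slc25a34 (chr4:141623835-141624084, minus strand) were 126 and 72 bases before the start.
Slc25a3: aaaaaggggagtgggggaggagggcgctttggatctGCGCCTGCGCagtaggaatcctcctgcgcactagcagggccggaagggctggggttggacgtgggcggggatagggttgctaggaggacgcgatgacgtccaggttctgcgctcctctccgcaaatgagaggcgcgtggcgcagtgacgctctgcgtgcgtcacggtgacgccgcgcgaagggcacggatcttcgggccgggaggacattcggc
Slc25a22: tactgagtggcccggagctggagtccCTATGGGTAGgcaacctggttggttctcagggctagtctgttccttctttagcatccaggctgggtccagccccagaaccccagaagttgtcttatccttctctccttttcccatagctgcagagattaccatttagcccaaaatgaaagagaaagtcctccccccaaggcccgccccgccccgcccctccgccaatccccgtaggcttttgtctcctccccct
Slc25a24: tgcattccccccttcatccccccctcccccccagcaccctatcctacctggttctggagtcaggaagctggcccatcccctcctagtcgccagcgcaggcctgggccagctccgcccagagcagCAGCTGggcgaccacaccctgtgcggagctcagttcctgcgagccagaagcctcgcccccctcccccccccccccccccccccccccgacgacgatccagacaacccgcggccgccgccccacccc
Slc25a34: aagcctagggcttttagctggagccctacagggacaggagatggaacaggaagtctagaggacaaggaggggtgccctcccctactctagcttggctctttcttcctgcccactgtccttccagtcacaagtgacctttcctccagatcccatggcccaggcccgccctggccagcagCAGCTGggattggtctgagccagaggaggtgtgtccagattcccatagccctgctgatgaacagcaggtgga
A match describes these letters only. CAGCTG stood before a member that rose (Slc25a24) and before a member that fell (Slc25a34).

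Between the denervated groups no carrier differed beyond the threshold. By edgeR 0 of 37 members were called in DKO-labelled against denervated WT muscle, beside 0.0408% of all genes tested (5 genes, 0.0245% higher and 0.0163% lower), and 3 members had an unadjusted p under 0.05. DESeq2 called 1 member (Slc25a29) and limma 0. The median log2 fold change was -0.03 over the members and -0.02 over all genes. The FPKM of the groups did not overlap for 32.4% of the members, near the 29.8% of all genes. Of these members, 3 were higher and 9 lower in DKO-labelled muscle, a less even split than in all genes (14.7% higher and 15.1% lower). That split was not tested. Among the most abundant members, the log2 fold changes were -0.22 ± 0.20 for Slc25a4, 0.30 ± 0.16 for Slc25a3, -0.44 ± 0.26 for Slc25a5 and -0.03 ± 0.15 for Slc25a11, with adjusted p-values of 0.925 to 0.995. Without denervated WT replicate 2 the value of Slc25a5 was 0.02, and that of Slc25a11 was 0.03 without denervated WT replicate 1. Spread was widest for Slc25a34 (-0.29 ± 0.69), so that a change of a similar size could not be seen there.

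The 4 members of smallest unadjusted p were Slc25a29, Slc25a37, Slc25a12 and Slc25a30. Slc25a29 had 1.15 and 1.08 FPKM from 102 and 91 fragments in DKO-labelled muscle, against 2.23 and 2.67 FPKM from 264 and 204 fragments in denervated WT muscle. The log2 fold change was -1.07 ± 0.24 (unadjusted p = 0.00318, adjusted p = 0.357), and DESeq2 gave an adjusted p of 0.0193. Slc25a37 was at 7.71 and 6.32 FPKM in DKO-labelled muscle, against 10.2 and 9.23 FPKM in denervated WT muscle (log2 -0.48 ± 0.17, unadjusted p = 0.0259, adjusted p = 0.721), between denervated and innervated WT muscle. Slc25a12, at 58.5 and 47.9 FPKM in DKO-labelled muscle and 72.2 and 71.3 FPKM in denervated WT muscle, had a log2 fold change of -0.43 ± 0.17 (unadjusted p = 0.0378, adjusted p = 0.777). Slc25a30 was at 4.65 and 3.19 FPKM in DKO-labelled muscle, against 2.75 and 2.32 FPKM in denervated WT muscle (log2 0.64 ± 0.27, unadjusted p = 0.0534, adjusted p = 0.828). In all 4 genes the groups did not overlap, but choosing genes by smallest p favours this, and 29.8% of all genes did not overlap either. Slc25a29 and Slc25a12 were lower in DKO-labelled than in both WT groups. Slc25a31, below the FPKM minimum, had 13 and 18 fragments in DKO-labelled muscle, against 1 and 2 fragments in denervated WT muscle and 2 and 3 fragments in innervated WT muscle; with no minimum its log2 fold change against denervated WT was 3.45 (unadjusted p = 0.00326, adjusted p = 0.272).

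**Figure D4:**
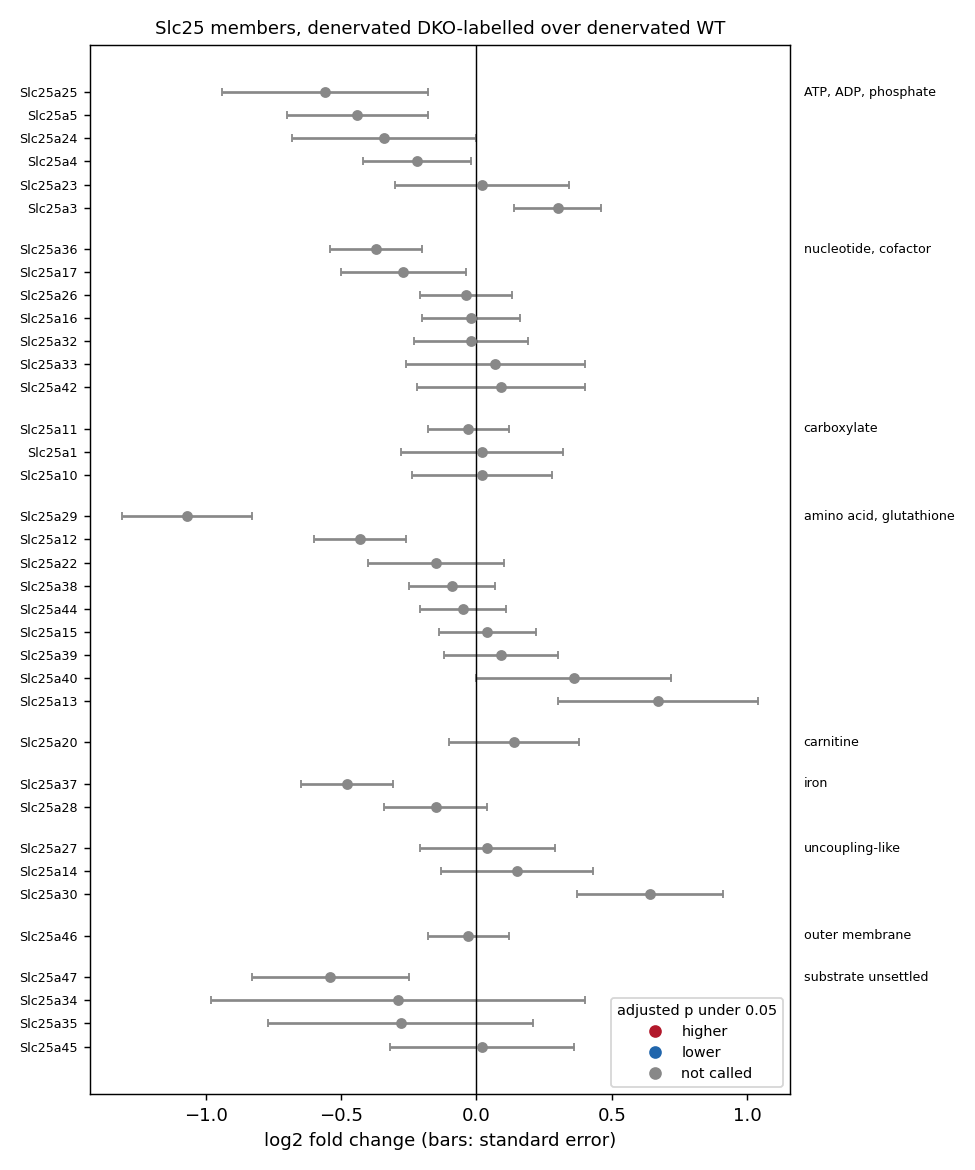
Log2 fold change (DKO-labelled over WT, both denervated) of 36 of the 37 tested Slc25 members, ordered by role, with bars of 1 standard error. No member was called, and the changes run from -1.07 (Slc25a29) to 0.67 (Slc25a13).

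Set against innervated WT muscle, where genotype and denervation differ together and the innervated libraries are the same ones as above, DKO-labelled muscle had 15 lower and 6 higher members of 37, beside 31.4% of all genes called (16.2% lower, 15.2% higher). The median log2 fold change was -0.44 over the members and 0.01 over all genes. Without overlap, 22 members lay below and 8 above innervated muscle, 81.1% of them, against 77.4% of all genes (40.9% below, 36.4% above). Library totals as the only scaling gave 11 lower and 7 higher members and moved the median of all genes by 0.33 on the log2 scale, with 75.1% of all calls higher, against 48.4%. Slc25a4 was 4.33-fold lower in DKO-labelled muscle (log2 -2.11 ± 0.21, adjusted p = 0.002) and 3.71-fold lower in denervated WT. Slc25a29 was 5.81-fold lower in DKO-labelled muscle (log2 -2.54 ± 0.24, adjusted p = 0.00191) and 2.76-fold lower in denervated WT. Slc25a22, at 6.37-fold lower, Slc25a34, at 13.4-fold lower (log2 -3.75, -5.25 without DKO-labelled replicate 1 and -3.03 without replicate 2), and Slc25a47, at 5.85-fold lower, were likewise called. The higher members were Slc25a24 (log2 1.74 ± 0.36, adjusted p = 0.0149), Slc25a14 (log2 1.11 ± 0.30, adjusted p = 0.0341), Slc25a5 (log2 0.99 ± 0.26, adjusted p = 0.0325), Slc25a30 (log2 0.95 ± 0.28, adjusted p = 0.0430), Slc25a39 (log2 0.79 ± 0.21, adjusted p = 0.0328) and Slc25a37 (log2 0.73 ± 0.17, adjusted p = 0.0207). Slc25a14, Slc25a30, Slc25a26, Slc25a35 and Slc25a36 were called here and not in denervated WT, and Slc25a20 in denervated WT and not here (log2 -0.72 ± 0.24, adjusted p = 0.0617), but no difference between the DKO-labelled and WT denervated groups was called for any of them. Without innervated WT replicate 1, 9 of the 21 calls held (lost ones at adjusted p 0.0655 to 0.209), without replicate 2, 7 (0.0559 to 0.190), and without DKO-labelled replicate 1 or 2, 10 each (0.0510 to 0.2 and 0.0572 to 0.199).

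Proteins that work with the carriers were read from 4 further lists. Of 13 tested enzymes that make or use what the carriers move, 11 (84.6%) fell and none rose in denervated against innervated WT, beside the 14.3% of all genes called lower and 14.4% called higher, with a median log2 fold change of -1.29. Mdh1, the cytosolic malate dehydrogenase of the malate-aspartate shuttle, had 87.0 and 84.8 FPKM in DKO-labelled muscle, 104 and 95.2 FPKM in denervated WT muscle and 719 and 801 FPKM in innervated WT muscle (log2 -2.91 ± 0.17 in denervated against innervated WT, adjusted p = 0.00127). Ckmt2, the mitochondrial creatine kinase of muscle that uses exported ATP, changed by -2.12 ± 0.32 on the log2 scale (adjusted p = 0.00761), the aspartate aminotransferase Got1 by -1.65 ± 0.22 (adjusted p = 0.00570) and Alas1, the entry enzyme of haem synthesis, by -1.53 ± 0.26 (adjusted p = 0.00966). Mdh1 and Got1 serve the same shuttle as Slc25a11 and Slc25a12, and Acly was not called. Of 16 other transport proteins of the mitochondrial membranes, 8 (50%) fell and none rose (median -0.66), among them Sfxn5 (log2 -1.39 ± 0.32, adjusted p = 0.0242), Brp44, now Mpc2, of the pyruvate carrier (log2 -1.24 ± 0.17, adjusted p = 0.00584), Sfxn2 (log2 -1.13 ± 0.28, adjusted p = 0.0290) and Vdac1 (log2 -0.96 ± 0.16, adjusted p = 0.00928). Of 10 components that import carrier proteins into the inner membrane, 1 was called, the receptor Tomm70a, and it rose (log2 1.12 ± 0.32, adjusted p = 0.0415), with a list median of 0.28; this is 10% of the list, below the share of all genes called higher. Differences between the lists were not tested. Without innervated WT replicate 2 the lists had 1, 0 and 0 calls, without replicate 1 they had 7, 1 and 0, and without denervated WT replicate 2 they had 11, 4 and 0; Tomm70a was also not called without either DKO-labelled library, and without denervated WT replicate 1 the import list had 4 calls. In DKO-labelled against denervated WT muscle none of these 3 lists had a call by edgeR, DESeq2 or limma or an unadjusted p under 0.05 by edgeR (0 genes), with medians of -0.16, 0.07 and -0.12.

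Members of the carrier family under other symbols gave 2 calls of 5 tested in denervated against innervated WT, where 28.7% of all genes were called, so the count is not set apart from the background. Mtch1, an outer membrane relative, had 135 and 177 FPKM in DKO-labelled muscle, 156 and 156 FPKM in denervated WT muscle and 64.9 and 66.4 FPKM in innervated WT muscle, a rise of 1.34 ± 0.18 on the log2 scale in denervated WT (adjusted p = 0.00570). Ucp3, the uncoupling protein of skeletal muscle, had 37.0 and 6.23 FPKM in DKO-labelled muscle, 5.72 and 4.89 FPKM in denervated WT muscle and 62.6 and 44.0 FPKM in innervated WT muscle, and fell by 3.25 ± 0.76 in denervated WT (adjusted p = 0.0244). Its high denervated value was DKO-labelled replicate 1. Ucp2 had 12.6 and 7.33 FPKM in DKO-labelled muscle, 4.61 and 3.01 FPKM in denervated WT muscle and 5.63 and 4.77 FPKM in innervated WT muscle, with a log2 fold change of 1.41 ± 0.32 between the denervated groups (adjusted p = 0.372; Ucp3 2.03 ± 0.73, adjusted p = 0.740). Both calls after denervation were lost without either innervated library and 1 of them without denervated WT replicate 2.

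Markers of the muscle fibre and of other cells moved with denervation too. Of 8 tested muscle markers, 5 were lower in denervated than in innervated WT and the list summed to 14462 to 14553 FPKM in DKO-labelled muscle, 16612 to 17441 FPKM in denervated WT muscle and 35321 to 38366 FPKM in innervated WT muscle; the marker Acta1 is listed at 0 in every library. Of the markers of other cells, 7 of 7 adipocyte, 5 of 7 Schwann cell, 5 of 6 endothelial and 2 of 6 fibroblast genes were lower. Of 7 macrophage genes 1, Cd68, was higher (log2 1.58 ± 0.28, adjusted p = 0.0111). Among all genes tested, 14.3% were called lower and 14.4% higher. These marker counts come from the fit with all libraries. The adipocyte list summed to 270 to 396 FPKM in DKO-labelled muscle, 305 to 338 FPKM in denervated WT muscle and 984 to 1006 FPKM in innervated WT muscle, and the macrophage list to 141 to 242, 193 to 238 and 120 to 211 FPKM in the same groups. Between the DKO-labelled and WT denervated groups no marker was called by edgeR, and 1 gene each of the adipocyte, macrophage and red cell lists had an unadjusted p under 0.05. The part of the cell makeup in the carrier changes was not tested.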

How the data were processed

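Polyadenylated RNA of soleus was sequenced in 6 libraries, 2 per group. The submitters' processing notes name Cuffdiff 2.0.2, TopHat2 2.0.3, Bowtie2 2.0.0.7, Trim Galore 0.2.1 and CASAVA 1.8.2, and the mm9 build. Settings, gene annotation and the use of strand were not given in the sources used here. For each gene the authors deposited, per the file headers, an FPKM, an estimated count (raw fragments) and a signal of scaled fragments, which was the raw value times 1 factor per library (0.6643 to 1.5641). Of the raw values, 88.3% to 89.0% were whole within 1e-06. Each gene was listed 3 times, and identical lines were counted once.

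Raw fragments were rounded and fitted with edgeR 4.0.16 (R 4.3.3), using TMM scaling, group means of all 6 libraries, genes with a mean of at least 0.5 FPKM, and a two-sided quasi-likelihood test with Benjamini-Hochberg adjustment and a threshold of 0.05. The scripts were tested on simulated data. SE is the log2 fold change divided by the square root of F. Levels are compared between genes in FPKM, which are per length. Alternatives were DESeq2 1.42.0, limma 3.58.1 on log2 FPKM with a pseudocount of 0.5 or 1, other scalings and minimums, fits of 2 groups, a replicate block and leaving out each library. The counts of the 4 further lists under these alternatives were added after the data were seen. The sequence motifs were chosen with results known.

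Members and lists were chosen with earlier results of these data known. Values per library are given for called members (up to 5 per role and direction), for the 4 of smallest p between the denervated groups, for the 5 most abundant, and for the relative closest in coding sequence, which stood in for protein sequence. A few other members and neighbours were named after their values were seen. Gene coordinates are on mm9, as deposited; the files do not say if the first base is 0 or 1. Promoter sequences are from RefSeq (GRCm38.p6), and coding sequences from the GENCODE transcripts, aligned with Biopython 1.88. Overlapping genes were not told apart. Some genes that enter the counts are not reported here by name.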

Additional observations from a re-analysis of the deposited data

How the results depend on the processing

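Slc25 calls depended most on the number of innervated libraries. Leaving out 1 library at a time gave 0 to 4 higher and 1 to 15 lower members in denervated against innervated WT, and 0 to 6 higher and 7 to 17 lower members in DKO-labelled against innervated WT. With 1 library left in a group, that library is assumed to vary like the others, and the fit has fewer samples. Scaling by library totals gave 7 higher members in denervated against innervated WT. DESeq2 called 1 member lower in DKO-labelled against denervated WT. Over all genes DESeq2 called 81 higher and 101 lower there and limma at most 17 and 18, against 3 and 2 by edgeR. Calls of the further lists in denervated against innervated WT ran, with 1 library left out, from 0 to 2 (other symbols), 0 to 4 (import), 1 to 11 (partner enzymes) and 0 to 10 (other membrane transport). For the import list library totals gave 2, and both limma fits and the fit of 2 groups gave 0. Library totals gave 4 for other membrane transport. For DKO-labelled against denervated WT, DESeq2 and the fit with no minimum gave 1 call among the other symbols. For DKO-labelled against innervated WT the ranges were 0 to 3, 0 to 3, 7 to 11 and 1 to 9. There both limma fits and the 2 FPKM minimum gave 1 among the other symbols, and library totals gave 4 and the fit of 2 groups 3 in the import list. Between the denervated groups, alternatives were run for 8 members. None was called in the main fit, and among the alternatives only DESeq2 called 1, Slc25a29 (log2 -1.09, adjusted p = 0.0193). The log2 fold changes of 2 turned sign: Slc25a5 (-0.44 with all libraries, -0.78 to 0.02 with 1 library left out, 0.02 without denervated WT replicate 2) and Slc25a11 (-0.10 to 0.03, and 0.02 with library totals). The cause of these shifts was not tested. The libraries share only runs of sample numbers; deviations within a run correlated at 0.21, 0.14 and 0.43. With the runs as replicate block, 5 higher and 16 lower members were called in denervated against innervated WT. The block gave 7 and 15 in DKO-labelled against innervated WT and 0 between the denervated groups, and all 17 and 21 calls were kept. Members gained in denervated against innervated WT included Slc25a35 (log2 -1.60, adjusted p = 0.0257), Slc25a26 (adjusted p = 0.0477) and Slc25a14 (adjusted p = 0.0492). The smallest change that this depth can show was not measured.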
